A study of Mus musculus with 2 samples.

Results

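Genes of DNA repair and recombination were read on arrays in a pair of Klf5-overexpressing mouse embryonic stem (ES) cell clones. Klf5 is a zinc finger protein that binds GC-rich promoter elements. The repair genes were chosen by symbol, with no threshold on signal, as the Xrcc, Rad (numbered in the fifties), Rad17, Rad18, Rad21, Rad23, Fanc, Msh, Mlh, Brca, Ercc and Parp genes together with Atm, Atr, Blm, Mre11a and Nbn. This gave 57 of the 18193 genes with a named probe set, read by 131 probe sets. By the start of the symbol alone the choice also took in 8 genes with other or less settled roles, namely Ercc6l, Ercc6l2, Fancd2os, Parp11, Parp12, Parp14, Parp16 and Rad54l2, which are counted in the totals below but described separately.

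Both arrays belong to 1 group, Klf5-overexpressing E14 cells, an established mouse ES line, kept undifferentiated in serum with LIF, the cytokine that sustains ES cell self-renewal. Total RNA of each clone was hybridised to 1 array (n = 2 arrays in all). The promoter that drives Klf5 is not stated in the labels, and the wild-type clones the study set these against were not analysed here, so no value below is a change caused by Klf5. What the arrays allow is which repair genes gave a signal above background, and how far the clones differ. With 1 array per clone no test of a difference can be made, and a difference has no replicate check.

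A few facts hold for the whole table. Each array gives a log2 signal per probe set, and a background level was set per array from 70 probe sets of genes specific to adult tissues such as lens, pancreas and muscle, at 6.71 in clone 1 and 6.33 in clone 2. The brightest Klf5 probe set read 11.61 in clone 1 and 12.25 in clone 2. All 15 ES cell markers passed this level on both arrays, against 2 of 11 fibroblast feeder markers (Thy1 and Pdgfrb) and 1 of 14 markers of differentiated derivatives (Nes), with 1 and 3 more of these lists above it on a single array. In RNA from whole cultures, fewer cells of a type and less RNA per cell cannot be told apart. The labels do not say whether the clones were grown or hybridised together.

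DNA repair is divided by the kind of damage. Mismatch repair removes copying errors, nucleotide excision repair cuts out bulky lesions, and poly(ADP-ribose) polymerases with Xrcc1 attend to nicks. Breaks of both strands are rejoined by end joining or copied back from the sister chromatid by homologous recombination, which needs Brca1 and Brca2. The Fanconi anaemia proteins unhook crosslinked strands. ES cells divide fast, spend much of their cycle in S phase and are known to rely on homologous recombination.

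The MutS genes are shown first. At the background level set above, their signals separate the partners used in every dividing cell from those used in meiosis. Msh3 and Msh6 proteins recognise mismatches, while Msh4 and Msh5 form a meiotic pair that stabilises crossover intermediates. The 250 bases before each start site are printed 5′ to 3′ on the strand of the gene, from RefSeq in build GRCm38.p6, with GC boxes (GGGCGG on either strand) in capitals.
Msh3, chr13:92355004-92355253, minus strand: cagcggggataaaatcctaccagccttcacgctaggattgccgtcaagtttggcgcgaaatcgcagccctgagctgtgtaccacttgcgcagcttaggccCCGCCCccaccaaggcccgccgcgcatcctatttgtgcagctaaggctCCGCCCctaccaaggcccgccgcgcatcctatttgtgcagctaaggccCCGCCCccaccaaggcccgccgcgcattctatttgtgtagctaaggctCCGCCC
Msh6, chr17:87974800-87975049, plus strand: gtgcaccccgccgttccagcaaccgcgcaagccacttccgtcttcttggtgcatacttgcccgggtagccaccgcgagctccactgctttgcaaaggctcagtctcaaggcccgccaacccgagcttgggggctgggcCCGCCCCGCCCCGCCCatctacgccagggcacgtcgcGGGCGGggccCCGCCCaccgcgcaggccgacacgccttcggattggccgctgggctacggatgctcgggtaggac
Msh4, chr3:153904892-153905141, minus strand: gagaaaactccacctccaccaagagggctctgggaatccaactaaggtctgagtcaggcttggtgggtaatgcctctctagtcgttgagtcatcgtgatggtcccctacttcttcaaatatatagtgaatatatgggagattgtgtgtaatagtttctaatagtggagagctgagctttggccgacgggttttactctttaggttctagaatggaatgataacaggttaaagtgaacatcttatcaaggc
Msh5, chr17:35046623-35046872, minus strand: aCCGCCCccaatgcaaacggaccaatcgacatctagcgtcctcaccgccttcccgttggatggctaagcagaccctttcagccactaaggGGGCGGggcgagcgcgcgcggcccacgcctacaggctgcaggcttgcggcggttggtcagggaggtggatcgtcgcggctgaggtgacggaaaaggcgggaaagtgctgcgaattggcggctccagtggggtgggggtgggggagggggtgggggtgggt
The Msh3 window holds 4 GC boxes, that of Msh6 5, that of Msh5 2 and that of Msh4 0. Msh6 was 12.19 in clone 1 and 12.40 in clone 2, and Msh3 7.87 and 8.0, both above background. Msh4 was 4.92 and 5.10. The brighter of the Msh5 probe sets was 6.03 and 5.29 and the other 5.11 and 5.38. Msh4 and Msh5 thus stayed under the background level in both clones, and no fold is given for them. This separation depends on the level. With the background at the 99th percentile (8.16 and 8.04), or with the mean over probe sets, Msh3 was above it in neither clone. With background from sensory receptor probe sets (5.435 and 5.075), Msh5 passed in both clones and Msh4 in clone 2. Among these MutS genes the presence of a GC box did not separate those above background from the others, since Msh5 carries 2. The MutS genes above background hold more, although some matches of Msh6 overlap. In the longer windows used below, GC boxes lay in 65.4% for genes above background and 36.1% for genes above it in neither clone. Among the repair genes alone they lay in 57.45% of 47 windows and 50% of 6. Mlh3, a MutL homologue that serves both mismatch repair and meiotic crossing over, was 8.41 and 8.32.

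Of the 57 genes, 49 (86.0%) were above background in both clones, where the share over all named genes was 47.6%. Parp16 was above it in clone 2 alone, which makes 50 above it in at least 1 clone (52.5% over all genes), and 7 were above it in neither. The 7 were Msh4, Msh5, Rad52, Ercc6, Parp3, Parp14 and Fancd2os. Without the genes taken in by the start of the symbol, 44 of 49 were above background in both clones. With the background at the 99th percentile of the same probe sets, which lies at 8.16 and 8.04, 29 of 57 passed in both clones and the share over all genes was 30.1%. Averaging the probe sets of each gene gave 33 of 57, where 36.7% of all genes passed in both clones. Signals of different probe sets are not compared as abundance, since their affinities differ.

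**Figure D1:**
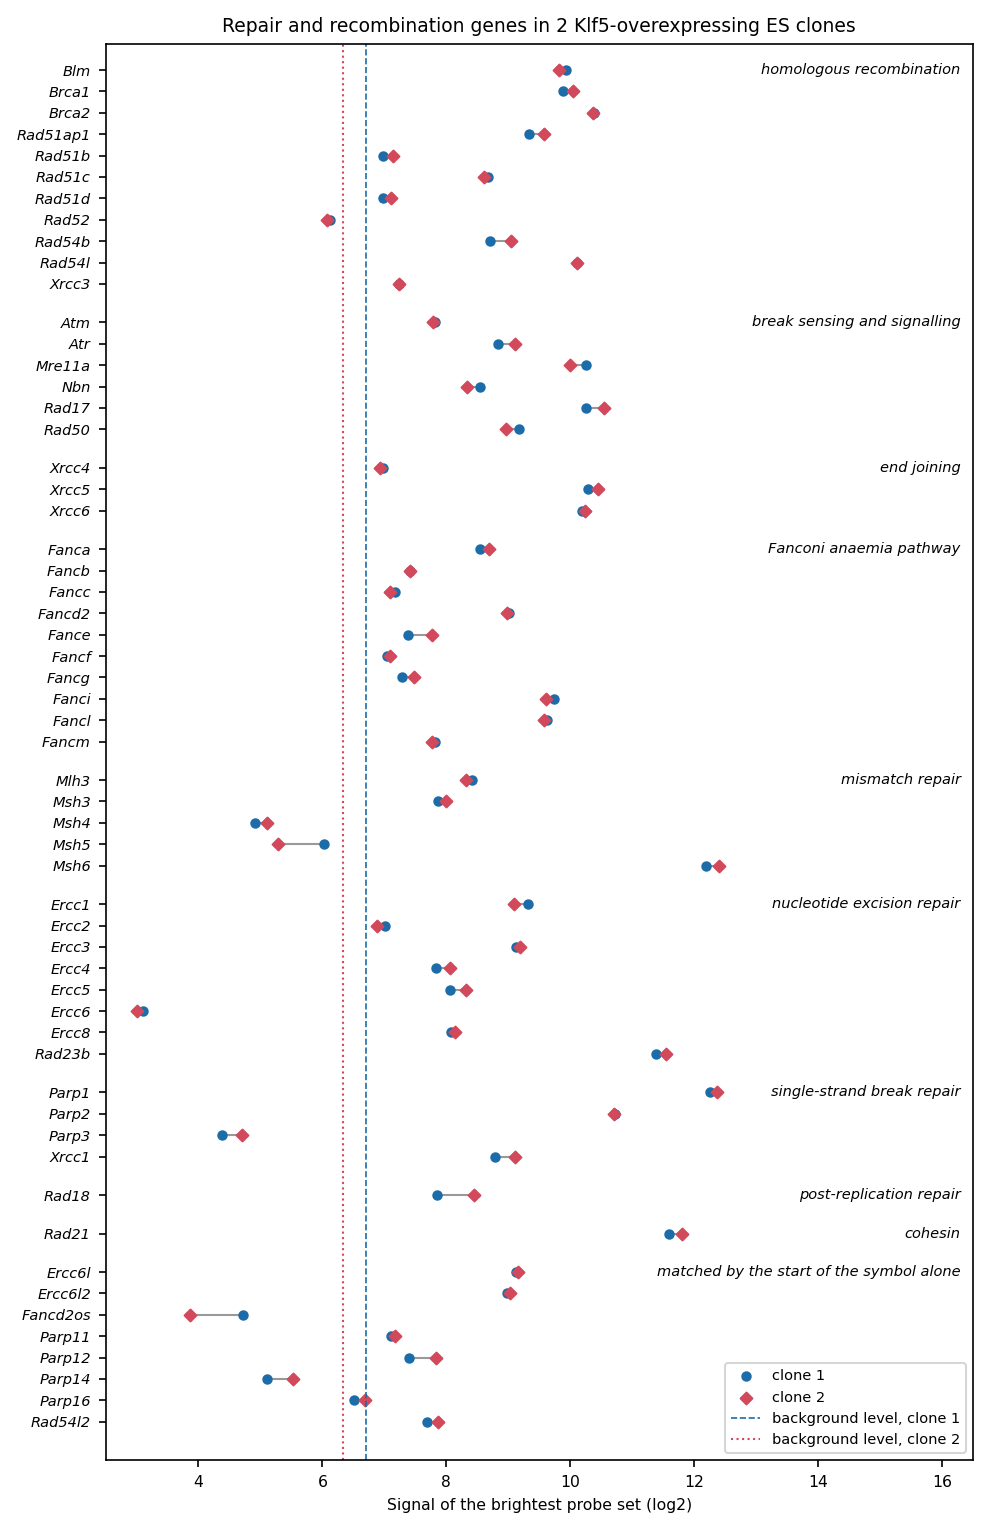
Log2 signal of the brightest probe set of each of the 57 genes in clone 1 (circles) and clone 2 (diamonds), grouped by role, with the background level of each clone as a vertical line. In 49 genes both points lie to the right of their lines, and the points of a gene lie close together.

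In homologous recombination 10 of 11 genes passed background on both arrays, and their differences ran from -0.12 to 0.34 on the log2 scale (clone 2 minus clone 1, as throughout). Brca1, which promotes end resection, was 9.88 in clone 1 and 10.04 in clone 2. Brca2 was 10.38 and 10.37. The helicase Blm, which dissolves joined recombination intermediates, was 9.93 and 9.81. In these 3 genes the clones lay within 0.16 of each other. Of the genes that act as accessory factors of strand exchange, Rad51b was 6.98 and 7.14, Rad51c 8.67 and 8.60, Rad51d 6.98 and 7.11, and Xrcc3 7.23 in both. Rad51ap1, a cofactor of strand invasion, was 9.33 and 9.58. The translocase Rad54l was 10.11 in both clones, whereas its relative Rad54b was 8.70 and 9.04, the widest gap of this group (1.27-fold). The exception to a signal above background was the annealing protein Rad52, at 6.13 and 6.08 by 1 probe set and 5.80 and 6.12 by the other, under the level of each clone. With the background at the 99th percentile Rad51b, Rad51d and Xrcc3 were also above it in neither clone. With the mean over probe sets Rad51b and Rad51d joined Rad52.

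Break sensing held a group that ran one way. All 3 members of the Mre11-Rad50-Nbn complex, which binds broken ends, starts resection and activates Atm, were lower in clone 2. Mre11a was 10.26 in clone 1 and 10.00 in clone 2, Rad50 9.18 and 8.97, and Nbn 8.54 and 8.34, differences of -0.26, -0.21 and -0.20. The dimmer probe sets of Mre11a (6.37 and 6.17) and Rad50 (3.61 and 3.36) also read lower in clone 2, although neither was above background. Among all genes above background, 10.6% were lower in clone 2 by at least 0.2, so each difference is a common one, and the complex was picked out after its values were seen. Under median normalization, the mildest alternative for these genes, the differences were -0.17, -0.12 and -0.11, and under quantile normalization -0.34, -0.33 and -0.33. The kinase Atm, which the complex activates, was 7.82 and 7.79 by the brightest probe set and 7.06 and 6.80 by the other. Both read lower in clone 2 as deposited. Under median normalization 0 repair genes with several probe sets above background read lower in all of them, so this did not hold for Atm. Atr and Rad17 ran the other way. Atr, the kinase that answers stalled forks, was 8.83 and 9.10 by the brightest probe set and 6.50 and 6.84 by the next, where the reading of clone 1 was not above background. Rad17, which loads the checkpoint clamp, was 10.26 and 10.54.

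All 3 end joining genes of the choice passed background on both arrays (47.6% over all genes). Nhej1, an end joining gene that the symbol rule does not reach, was above it in neither clone (6.0 and 5.71). With the background at the 99th percentile Xrcc4 was above it in neither clone. The Ku subunits, which cap broken ends, were close in both clones, with Xrcc5 (Ku80) at 10.28 and 10.44 and Xrcc6 (Ku70) at 10.19 and 10.23. Xrcc4, the scaffold of the ligase that seals the ends, was 6.98 and 6.93.

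All 10 Fanconi anaemia genes passed background on both arrays (47.6% over all genes), with a median difference of -0.015. With the background at the 99th percentile Fancb, Fancc, Fance, Fancf, Fancg and Fancm were above it in neither clone. With the mean over probe sets these were Fancc and Fancf. The members of the core ubiquitin ligase complex were Fanca (8.54 and 8.68), Fancb (7.42 in both), Fancc (7.17 and 7.09), Fance (7.38 and 7.77), Fancf (7.05 and 7.09), Fancg (7.28 and 7.48) and the catalytic subunit Fancl (9.62 and 9.57). Fancm, the translocase that anchors this complex, was 7.81 and 7.77. Its substrates, which clamp DNA as a pair, were Fancd2 at 9.01 and 8.98 and Fanci at 9.73 and 9.61. Fance showed the widest gap of the group, 0.39 (1.31-fold), but its other probe set read 7.35 and 7.36. The gap in Fance was thus seen in 1 of 2 probe sets above background.

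Of the 8 nucleotide excision repair genes of the choice, 7 were above background on both arrays (47.6% over all genes). With the mean over probe sets Ercc2, Ercc5, Ercc6 and Ercc8 were above it in neither clone. With the background at the 99th percentile these were Ercc2 and Ercc6. The incision nucleases were Ercc1 (9.32 and 9.09) with its partner Ercc4 (7.84 and 8.06), and Ercc5 (8.06 and 8.32). Of the TFIIH helicases that open the lesion, Ercc2 was 7.01 and 6.88 and Ercc3 9.12 and 9.19. Rad23b, which steadies the damage sensor Xpc, was 11.38 and 11.54. Differences in this group lay between -0.23 and 0.26. The transcription-coupled branch was split. Ercc8, the substrate receptor of a ubiquitin ligase at stalled polymerases, was 8.07 and 8.14, while the single Ercc6 probe set gave 3.10 and 3.01, far under the background level in both clones. Whether that probe set reads the Ercc6 transcripts of these cells was not tested.

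Among the genes that attend to nicks, the polymerase Parp1 was 12.26 in clone 1 and 12.36 in clone 2, Parp2 10.72 and 10.71, and the scaffold Xrcc1 8.78 and 9.10. The Parp1 signals were higher in clone 2 in each of 3 probe sets above background, by 0.09 to 0.31. Parp3 was 4.38 and 4.70 by the brightest of 3 probe sets and above background in none. Rad21, the cleavable cohesin subunit that holds sister chromatids together for repair, was 11.60 and 11.80.

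The genes taken in by the start of the symbol alone were 6 of 8 above background in at least 1 clone (52.5% over all genes). All 6 read higher in clone 2, by 0.04 to 0.44, where 63.9% of all genes did. Under median normalization it was again 6, where 77.8% of all genes read higher. Under quantile or loess normalization it was 3, where 48.5% and 51.8% of all genes did. The mono-ADP-ribosyltransferases among them were Parp11 (7.11 and 7.17), Parp12 (7.40 and 7.84) and Parp16 (6.51 and 6.68). Parp12, which is induced by interferon, was 1.36-fold apart. Parp16 passed in clone 2 through its lower level, since its signal there lay under the level of clone 1. The mitotic helicase Ercc6l was 9.12 and 9.16, Ercc6l2 8.98 and 9.03, and the remodeller Rad54l2 7.68 and 7.86. Parp14 (5.11 and 5.52) and Fancd2os (4.72 and 3.86) were not above background.

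Across the repair genes the clones were close. Over the 50 repair genes that passed background the median difference was 0.065, with the middle part of the distribution between -0.04 and 0.20, and the median size of the difference was 0.13. Over all 9547 genes above background the median was 0.09 and the median size 0.17. Of the 50 genes, 30 were higher in clone 2, 17 in clone 1 and 3 equal, a share of 60.0% against 63.9% over all genes. Without the 6 genes matched by the start of the symbol it was 24 of 44 (54.5%). That split follows the scaling of the arrays. It was 84.0% under median normalization (77.8% over all genes), 44.0% under quantile normalization (48.5%) and 46.0% under loess (51.8%), so the sign of the small median difference depends on the scaling. The median of all genes moved from 0.09 to 0.18 under median normalization and to 0 under quantile normalization, and the median of the repair genes moved with it, to 0.155 and -0.0425.

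**Figure D2:**
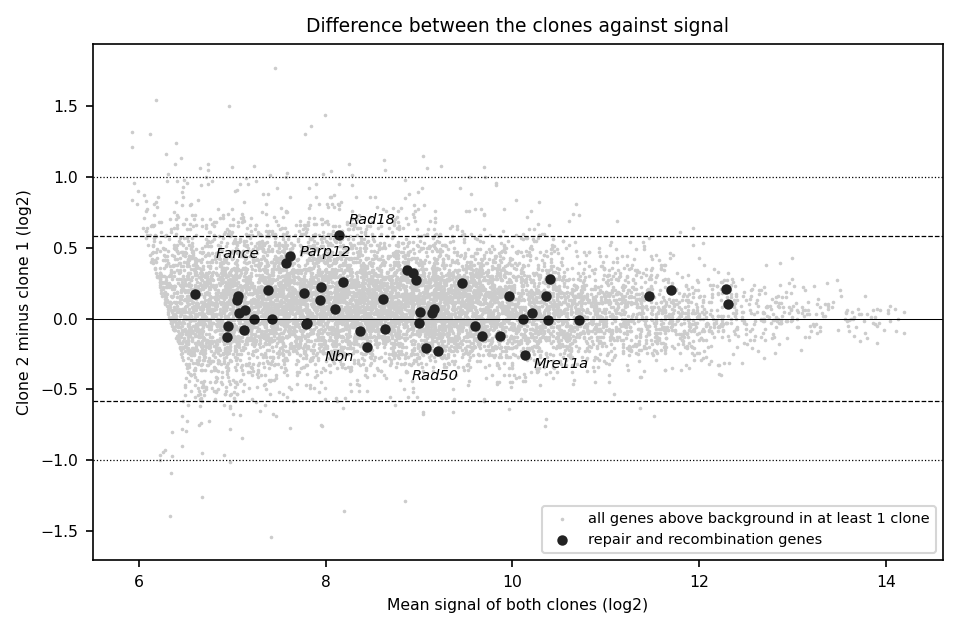
Difference between the clones (clone 2 minus clone 1, log2) against the mean signal of both clones, for all 9547 genes above background in at least 1 clone (grey) and the 50 repair and recombination genes among them (black). Dashed lines mark 1.5-fold and dotted lines 2-fold, and only Rad18 reaches the dashed line.

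At the size rule of 2-fold with the higher clone above background, 0 of the 50 genes passed, where 0.45% of all genes did. At 1.5-fold 1 gene passed, Rad18 (4.46% of all genes). In the direction of clone 2 that is 1 gene against 3.94% of all genes, and in the direction of clone 1 it is 0 against 0.524%. Neither count exceeds the share over all genes. Rad18, the ubiquitin ligase that marks stalled replication clamps so that lesion-bypass polymerases can be recruited, was 7.85 in clone 1 and 8.44 in clone 2. The gap was 0.59 and the mean 8.145 ± 0.42 (SD, n = 2). The next widest was Parp12 at 0.44.

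The gap in Rad18 rests on 1 of its 4 probe sets. The others gave 7.71 and 7.59, 7.26 and 7.20, and 6.53 and 6.41, each slightly lower in clone 2. With the mean over its probe sets the Rad18 difference was 0.07, and under quantile and loess normalization of the brightest it was 0.45 and 0.47, under 1.5-fold. Rad23b had the opposite pattern, with 6.92 and 7.63 (1.64-fold) in a dim probe set but 11.38 and 11.54 in the brightest. Counted by probe set, 2 of the 83 probe sets of repair genes that passed background reached 1.5-fold, where 5.51% of all did, and 0 reached 2-fold, where 0.695% did.

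Disagreement of this kind was general. Of the 23 repair genes with several probe sets above background, 9 read higher in clone 2 in all of them, 3 read lower in all, and 11 (47.8%) were mixed or held a difference of 0. Of the repair genes 39.1% were thus higher throughout and 13.04% lower throughout. Over all 3846 genes with several such probe sets the shares were 38.7% higher, 11.2% lower and 50.1% mixed, so the repair genes stood near the background in each. The counts of genes that read one way moved with the scaling, to 12 higher and 0 lower under median normalization and to 4 higher and 6 lower under quantile normalization. The SD between probe sets of the same repair gene was 0.225 on the log2 scale, where the SD between the brightest probe sets of the 50 genes was 0.178. Over all genes the same values were 0.258 and 0.263. The first of each pair includes the dimmer probe sets of a gene, and the second only its brightest, which is itself dim in some genes.

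In the signals as deposited, the genes that read higher in clone 2 throughout were Atr, Fance and the following 7. Msh3 gave 6.71 and 6.93 in its other probe set, Rad51d 6.34 and 6.86, and Ercc8 7.53 and 7.67. The other probe sets of Parp1 gave 12.03 and 12.34, and 11.62 and 11.71, and that of Rad23b next in signal gave 10.25 and 10.49. Ercc6l gave 7.75 and 7.91, and Ercc6l2 7.04 and 7.05. The Rad51d reading of clone 1 was not above background there, which makes that gap at least 1.11-fold. Apart from it and the dim Rad23b probe set given above, these gaps ran from 0.01 (Ercc6l2) to 0.31 (Parp1). Lower throughout were Atm, Fancm (7.11 and 7.0 in its other probe set) and Rad51c (7.88 and 7.67).

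Among the mixed genes, Brca1 gave 8.81 and 8.92 in its next probe set and 8.56 and 8.40 in the dimmest above background, so 2 of 3 read higher in clone 2. Ercc4 gave 6.97 and 7.13, and 6.70 and 6.35, and Ercc1 8.49 and 8.60, against a brightest probe set that read lower in clone 2. Fanca turned to 7.38 and 7.05, while Fancd2 turned to 7.58 and 7.84 and Fanci to 7.90 and 7.98. In each of these 3 Fanconi genes the other probe set ran against the brightest. Rad21 gave 10.08 and 9.91, and 9.82 in both clones. The other readings of Rad51ap1 were 8.74 and 8.85, 7.67 and 7.56, and 7.16 and 7.47, so 3 of 4 were higher in clone 2. Rad54l, equal in its brightest probe set, gave 6.83 and 7.11 in the next and 6.67 and 7.21 in another, where clone 1 was not above background and the gap is at least 1.42-fold. Xrcc3, also equal in its brightest, gave 5.99 and 6.43 in a probe set that passed in clone 2 only through the lower level of that clone, so no fold is given. The Ercc4 probe set at 6.70 and 6.35 likewise passed in clone 2 alone.

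**Figure D3:**
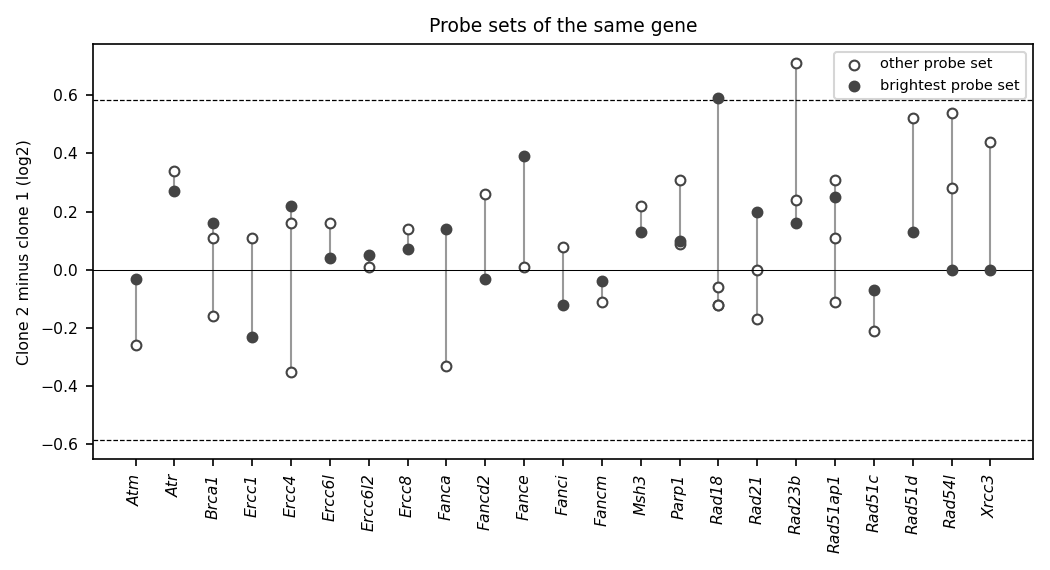
Difference between the clones (log2) in each probe set that passed background on at least 1 array, for the 23 repair genes with several. Filled points are the brightest probe set of the gene, open points the others, and dashed lines mark 1.5-fold. Rad18 spans 0.71 between its probe sets.

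The rest of the repair machinery, 75 measured genes of a list that the symbol rule does not reach, gave a similar picture. Of these, 68 passed background on both arrays and 3, Gen1, Wrn and the glycosylase Neil3 (6.17 and 6.65), on that of clone 2 alone, with a median difference of 0.07. Those not above it in either clone were Bard1 (5.81 and 5.95), the partner of Brca1, Nhej1 (6.0 and 5.71), Polq (5.24 and 5.47) and Uvssa (5.03 and 4.88). At 1.5-fold 3 of 71 passed, all higher in clone 2, near the share over all genes. That share was 4.46%, of which 3.94% were higher in clone 2 and 0.524% in clone 1. The lesion-bypass polymerase Polk was 7.47 and 8.33 (1.82-fold). The resolvase Gen1 was 6.08 and 6.74, above background in clone 2 alone and so at least 1.02-fold higher there. The helicase Wrn was 5.99 and 6.58, above background in clone 2 alone and through the lower level of that clone. The damage sensors Ddb2 (7.65 and 8.15) and Xpc (7.63 and 8.12) came next, and with Polk they also belong to the list of p53 targets, where 18 of the 20 above background read higher in clone 2 (median 0.235), and 17 under quantile normalization (median 0.145). Over all genes 63.9% read higher in clone 2 (median 0.09), and 48.5% under quantile normalization (median 0).

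Meiotic recombination genes were above background less completely, 9 of 18 in both clones, near the share over all genes. The meiotic recombinase Dmc1 (5.72 and 6.10), the break-forming Spo11 (4.34 and 3.54), Prdm9 (5.09 and 5.10) and Meiob (4.02 and 4.06) were not above it, as Msh4 and Msh5 were not. Mnd1 (8.93 and 8.68), Syce1 (8.84 and 9.15) and the meiotic cohesin subunit Stag3 (9.44 and 9.83) were. Sycp1, of the synaptonemal complex, was 5.77 and 6.41, above background in clone 2 alone through its lower level, and the 1 meiotic gene past 1.5-fold. Tex11 was 6.62 and 7.02, above background in clone 2 alone and at least 1.24-fold higher there. The other cohesin, condensin and SMC genes were all above background, 15 of 15, with the acetyltransferase Esco2 at 9.34 and 10.30 (1.95-fold) and Esco1 at 8.55 and 9.0, Nipbl, the loader, at 8.86 and 9.25, and Smc4 of condensin at 12.38 and 12.05.

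Replication and cell cycle genes are given beside these because many repair genes are transcribed with them in S phase. Of 43 replication genes 42 passed background on both arrays, with a median difference of 0.03 and 0 at 1.5-fold. Dbf4 (10.86 and 11.20) and Gins2 (10.01 and 9.74) lay at the ends. Of 27 cell cycle genes 25 were above it, with a median of 0.04, and Foxm1 (7.25 and 7.83) and Wee1 (9.80 and 10.37) were the widest. Under quantile normalization the medians of the repair, replication and cell cycle genes were -0.0425, -0.0325 and -0.005, so all 3 turned below 0.

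**Figure D4:**
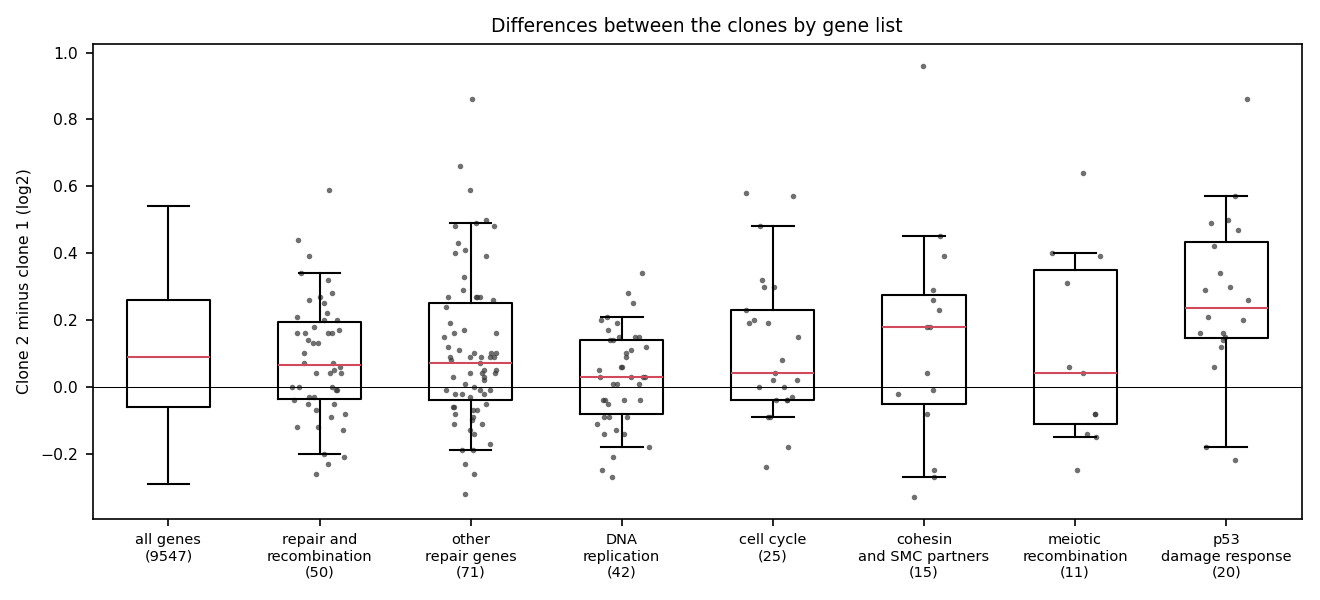
Differences between the clones (log2) for all genes above background in at least 1 clone and for each gene list, with the number of genes in brackets. Boxes span the middle of each distribution with the median in red, whiskers run from the 5th to the 95th percentile, and points are genes. The repair and recombination genes centre on 0.065 and all genes on 0.09.

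Promoter windows, 250 bases before to 50 after a start site, were found in RefSeq (GRCm38.p6) for 47 of the 57 genes, 53 windows in all. They were CpG-rich, with a median ratio of observed to expected CpG of 0.901, against 0.384 over all 32851 windows and 0.779 over the windows of genes above background. Matches to E2F letters (TTTGGCGC, TTTCCCGC, TTTCGCGC or TTTGCCGC, on either strand) lay in 8 windows (15.1%), against 2.26% of all windows and 4.34% of those of genes above background. The genes were Brca2, Fancg, Msh3, Msh5, Msh6, Rad51c with 2 start sites, and Xrcc6. E2F factors regulate S phase transcription. The Msh6 match lies within the 50 bases after the start site, outside the stretch printed above. CCAAT boxes (CCAAT) were found in 56.6% of the windows against 37.4% of all and 38.0% of those of genes above background.

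GC boxes, which Sp and Klf proteins bind, had a different place. They lay in 56.6% of the repair gene windows, above the 35.7% of all windows but under the 65.4% of genes above background. In windows of genes not above background in either clone the share was 36.1%. A looser Klf pattern (CCNCNCCC) can overlap a GC box. It lay in 58.5% of the repair gene windows, against 49.5% of all and 69.4% of those of genes above background. For repair genes above background it lay in 55.3% of 47 windows, and for those above it in neither clone in 83.3% of 6. The cell cycle element CHR (TTTGAA) lay in 7.55%, against 17.9% and 11.8%. Rad18, the gene with the widest gap by its brightest probe set, held neither a GC box nor the Klf pattern in its 2 windows, which overlap. Whether this bears on the gap was not tested. A match is a description of letters and not a bound site, and E2F matches on opposite strands can overlap.

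**Figure D5:**
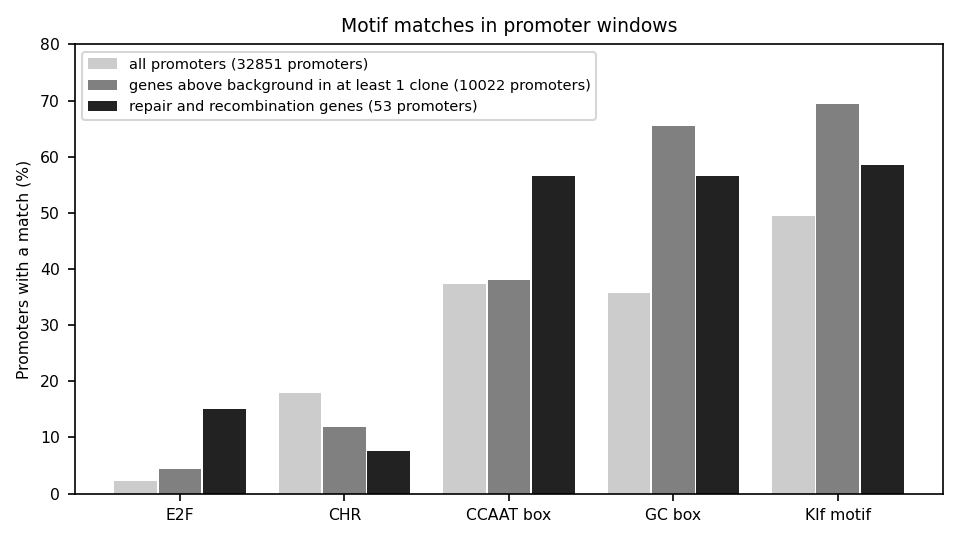
Percentage of promoter windows with at least 1 match to each motif, for all windows, for those of genes above background in at least 1 clone, and for those of the repair and recombination genes. The E2F bar of the repair genes stands at 15.1% and the CCAAT bar at 56.6%, the GC box bar at 56.6%.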

How the data were processed

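Arrays of 2 Klf5-overexpressing clones were analysed, 1 array each. The deposited values are log2 signals of probe sets, which the authors produced in Transcriptome Analysis Console, according to the submitters' processing notes. The sources used here give neither its version nor the background correction and normalization. Base 2 was inferred from the span of the values, 2.21 to 14.38, and every fold rests on it. The arrays' number limits the precision.

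Of 45037 probe sets, 34945 had 1 gene symbol in the platform annotation, 932 several and 9160 are unnamed here, and only the first kind was used. A gene was represented by its probe set with the highest mean. Background was the 95th percentile, per array, of 70 probe sets of 48 adult-tissue genes (56 listed). A bound, "at least N-fold", raises the dimmer clone to its background level. No p-value was computed. Size rules of 1.5-fold and 2-fold were applied to all genes alike. Simulated data with the same spread for every gene checked only that planted differences were called, and not the rules themselves. All repair genes above background are named, and of other lists those past 1.5-fold or with the widest differences. Other genes were named after their values were seen. Members, lists and rules were chosen with earlier results of these data known. Alternatives covered normalization, background, probe set choice and gene choice. Python 3.11.15, pandas 2.3.3 and statsmodels 0.14.6 were used.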

Additional observations from a re-analysis of the deposited data

How the results depend on the processing

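The number of repair genes above background in both clones stayed between 44 and 52, apart from the following exceptions. It fell to 29 of 57 with the background at the 99th percentile, where the share over all genes was 30.1%. When the probe sets of each gene were averaged it was 33 of 57, where that share was 36.7%. The 44 is out of 49, since it leaves out the genes matched by the start of the symbol alone. Leaving out 1 clone gave 49 and 50. The median difference of 0.065 turned to -0.0425 under quantile and -0.0279 under loess normalization, and rose to 0.155 under median normalization; the cause was not tested. At 1.5-fold the count of 1 became 0 under quantile or loess normalization or with the mean over probe sets, 2 with background from sensory receptor probe sets (Msh5 added) and 3 with no background filter (Msh5 and Fancd2os added). Over all genes the share at 1.5-fold was 4.46%, and 3.36% under quantile, 3.375% under loess and 2.75% with the mean over probe sets. It was 6.46% with background from sensory receptor probe sets and 9.21% with no background filter. The count of repair genes at 2-fold was 0 under each alternative run. Background genes without Mylpf, and the higher background level asked of both clones, were chosen after the data were seen and gave 49 genes each. No paired analysis was possible because both clones belong to 1 group.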
